A study of Mus musculus with 16 samples.

Results

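Interferon-stimulated genes are the genes that cells switch on when interferons bind their receptors. The set described here has 43 listed members in mouse bone-marrow-derived mast cells treated with an antibody against TIM-3. Members were found as the non-control probes of the array whose gene name is a listed symbol or an older synonym of it. Of the 43, Xaf1 had no such probe, and Cxcl9 had a probe that did not rise well above background on any array. The other 41 were among the 17082 genes tested. They comprise 31 genes of the type I interferon core, Irf1 and the chemokine Cxcl10, 5 GTPases of the Gbp and Irg families, and 3 genes of antigen processing (Psmb8, Psmb9 and Tap1). Within the core, 25 are effectors, 3 are RNA sensors and 3 are regulators of transcription.

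The cells were marrow cells cultured for over 4 weeks in RPMI with 10% serum, interleukin 3 (5 ng/ml) and stem cell factor (40 ng/ml). Their stated purity was above 90% by the IgE receptor and the kit receptor, which leaves room for cells of other types. TIM-3, encoded by Havcr2, is a surface receptor of immune cells, and the study asked how an agonist antibody to it changes mast cell gene expression. In all 4 groups, cells received either polyclonal goat antibody to mouse TIM-3 or control goat IgG, each at 15 ug/ml. Cells were either resting or activated through the IgE receptor, and were taken after 2 h or after 16 h, which gives 4 groups. For activation, anti-DNP IgE at 5 ug/ml was left on the cells during 1 h, followed by DNP-HSA at 100 ng/ml as antigen. The labels give no mouse strain or age, and no group was left without antibody or IgG. Each group has 4 arrays, numbered 1 to 4. Cy5 always labelled RNA from cells given anti-TIM-3, and Cy3 always RNA from cells given IgG. Dyes were never exchanged, so in any group's ratio a response to the antibody and a dye bias of the gene cannot be told apart. The part of a bias shared by all arrays drops out of a difference between groups. Bulk RNA was hybridised, so a larger number of cells of some type and more RNA per cell cannot be told apart either. The labels do not say whether replicates came from separate cultures or animals, and p-values therefore reflect the spread between these samples alone, some or all of which may be technical.

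Type I interferons (alpha and beta) signal through the kinases JAK1 and TYK2 to a complex that holds STAT2 and IRF9. That complex binds the interferon-stimulated response element (ISRE) in the promoters of core genes, many of which block steps of viral replication. Interferon gamma acts mainly through the gamma-activated sequence (GAS), and it raises IRF1, the Gbp and Irg GTPases and the machinery that loads peptides on class I molecules. The sets overlap, because many members answer to both kinds of interferon and because IRF7 and IRF1 act on further members. Mast cells carry receptors for both.

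Promoters of some members described below are shown, chosen because they carry the letters through which these genes are known to be read. Irf7, Oasl2 and Ifi44 had windows without these letters and are not shown. Sequences are from RefSeq on mouse build GRCm38.p6, 5′ to 3′ on the strand of the gene, from windows that run from 250 bases before to 50 bases after a start site. Capitals mark the ISRE core, searched on both strands as GAAA, any 2 bases and GAAA, which reads as TTTC, any 2 bases and TTTC on the opposite strand.
Rsad2, chr12:26456543-26456592, minus strand: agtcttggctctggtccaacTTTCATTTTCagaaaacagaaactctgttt
Ifit1, chr19:34640765-34640833, plus strand: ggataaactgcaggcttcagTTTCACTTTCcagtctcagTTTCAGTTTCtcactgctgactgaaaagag
Ifit3, chr19:34583353-34583402, plus strand: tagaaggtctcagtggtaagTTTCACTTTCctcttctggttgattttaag
Isg15, chr4:156200855-156200916, minus strand: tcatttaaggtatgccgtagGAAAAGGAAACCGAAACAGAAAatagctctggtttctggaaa
Cxcl10, chr5:92349073-92349122, minus strand: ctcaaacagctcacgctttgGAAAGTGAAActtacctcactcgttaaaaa
Stat2, chr10:128270256-128270305, plus strand: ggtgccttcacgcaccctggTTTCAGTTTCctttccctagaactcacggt
Gbp2, chr3:142620584-142620633, plus strand: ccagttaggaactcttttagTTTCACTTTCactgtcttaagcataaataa
Igtp, chr11:58199502-58199551, plus strand: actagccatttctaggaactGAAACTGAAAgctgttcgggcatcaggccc
In Irf1 and Psmb8 the capitals mark instead the GAS letters, searched as TTC, any 3 bases and GAA, which read the same on both strands.
Irf1, chr11:53769904-53769952, plus strand: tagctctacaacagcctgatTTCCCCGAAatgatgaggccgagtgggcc
Psmb8, chr17:34198078-34198126, plus strand: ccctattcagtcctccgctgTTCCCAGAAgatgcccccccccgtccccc

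RefSeq windows were matched for 35 of the 43 listed members. The ISRE core was in the windows of 18 of them (51.4%), against 3.99% of 27025 genes and 3.44% of all 300-base windows. It was in 13 of 25 core genes with a window, in all 4 Gbp and Irg GTPases with one, and in 0 of the 3 antigen-processing genes. Isg15, a ubiquitin-like modifier, has 3 overlapping matches, and Ifit1 has 2 separate ones. GAS letters were in 10 of the 35 members (28.6%), against 9.55% of genes. In 5 members both motifs occurred, with 2 overlaps between them. A match is a description of letters and not a measured binding site, and no match says only that these letters are not in the window.

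Scanner quality was even across arrays: the share of spots well above background was 53.7% to 62.1% in Cy3 and 54.8% to 67.7% in Cy5, with 0 saturated spots. The number of arrays limits the precision. All 10 mast cell markers examined (Kit, Fcer1a, Cpa3 and others) were tested, and their summed Cy3 level was 224770 to 393313 over the 16 arrays. Of 11 macrophage and dendritic cell markers, 10 were tested and C1qa was not, and their summed Cy3 level was 27826 to 92758. Siglech, which defines plasmacytoid dendritic cells, and the neutrophil genes Elane and Camp were not well above background on any array. Mx1 was well above background in Cy3 on only 1 of the 4 arrays of each 16 h group, so its values at 16 h are close to background. Oas2 was well above background in Cy5 on 3 of the 4 arrays of activated cells at 16 h. Of 16 members with several kept probes, 6 (Ifit2, Trim25, Parp14, Adar, Ddx58 and Irf9) had probes of differing sign in the ratio of activated cells at 16 h. Rsad2's 3 probes gave -0.84, -0.68 and -0.57 there, and Ifit3's kept probes -0.71 and -0.26. Near-identical copies (Ifit3, the Oas1 family and the Gbp genes) may share a probe's signal and are uncertain in that respect.

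In IgG-treated cells, most interferon-stimulated genes were high on replicate 1 and low on replicate 2, and the core median was so in all 4 groups. This dependence on replicate number was known when the genes were chosen. Levels here are log2 Cy3 intensities normalized between arrays, where 1 unit is a 2-fold change, and only differences within a gene are read. Rsad2 encodes viperin, an antiviral enzyme. On replicates 1 to 4 its log2 Cy3 level was 11.55, 9.19, 9.6 and 10.24 in resting cells at 2 h and 12.03, 9.56, 10.22 and 10.86 in activated cells at 2 h. At 16 h it was 11.01, 8.72, 8.71 and 8.93 in resting cells and 11.36, 9.05, 9.39 and 9.41 in activated cells. Replicate 1 stood above the other 3 arrays in all 4 groups. Averaged over groups after taking out the group means, Rsad2 deviated by 1.5, -0.86, -0.51 and -0.13 on replicates 1 to 4, a range of 2.36 or 5.12-fold (limma F test over replicate numbers, adjusted p = 2.83e-07).

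Ifit1 encodes a protein that binds RNA lacking the host's cap methylation. Its log2 Cy3 level was 10.14, 7.89, 8.27 and 9.42 in resting and 10.41, 8.16, 8.7 and 9.41 in activated cells at 2 h. At 16 h it was 11.12, 8.76, 8.96 and 9.1 in resting and 11.6, 8.9, 9.43 and 9.32 in activated cells. Its 4 replicate-number means spanned 2.39 (5.24-fold, adjusted p = 6.36e-06), the widest range among the members. Isg15 showed the same order, with 11.07, 9.01, 9.43 and 10.33 in resting and 11.46, 9.34, 9.83 and 10.52 in activated cells at 2 h. The other members among the 6 with the widest range were Ifit3 (2.29), Oasl2 (2.28), which is an oligoadenylate synthetase-like protein, and Zbp1 (2.15), a sensor of Z-form nucleic acid, beside Isg15 at 2.15. Irf7, the regulator that amplifies type I interferon production, ranged over 1.92.

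**Figure D1:**
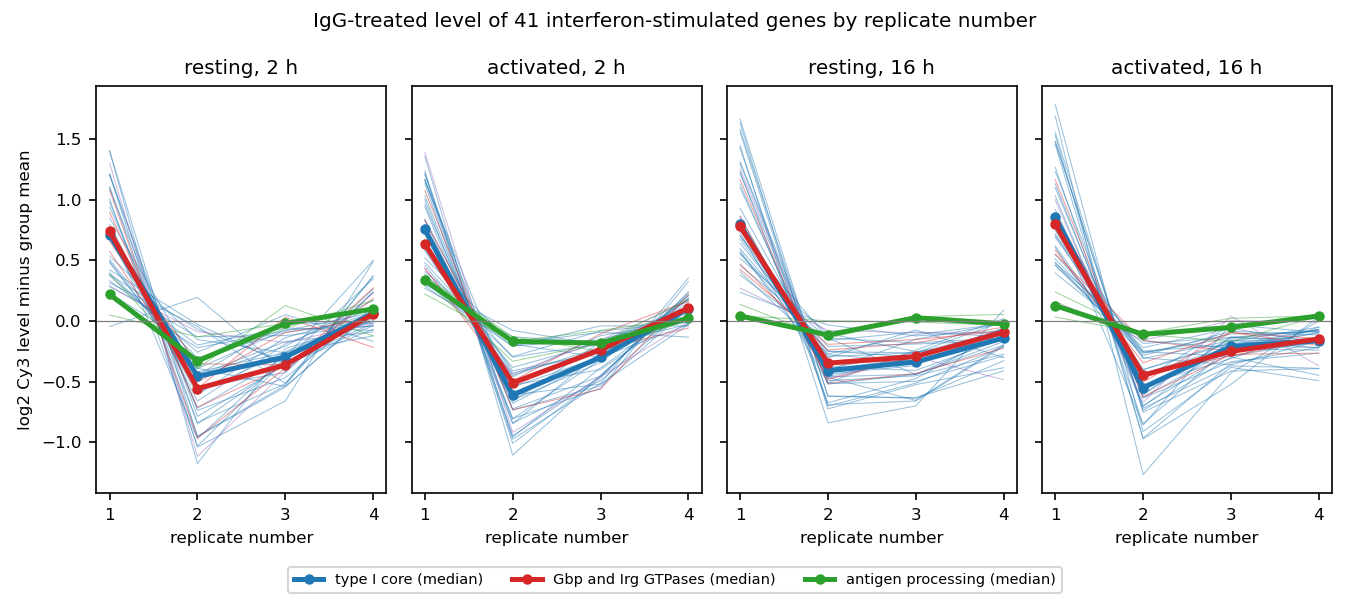
Log2 Cy3 level of each of the 41 genes minus its group mean, against replicate number, in the 4 groups; thin lines are genes and thick lines with dots are medians of the type I core, the Gbp and Irg GTPases and the antigen-processing genes. The core median on replicate 1 was 0.71 to 0.86 above the group mean in every group, and that on replicate 2 was below it by between -0.41 and -0.61.

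Replicate number was called in 39 of the 41 members in Cy3 (limma F test, Benjamini-Hochberg adjusted over all genes), where 6.52% of all genes were called. Stat2 (adjusted p = 0.117) and Tap1 (adjusted p = 0.087) were not called, and both had an unadjusted p under 0.05, as had the other 39. Replicate 1 was the highest of the 4 arrays in all 4 groups for 38 members, against 2.3% of genes, and replicate 2 was the lowest in all 4 for 24 members, against 4.05% of genes. In Cy5, the RNA of anti-TIM-3-treated cells, 41 of 41 members were called, against 7.25% of genes. In the ratio of the 2 channels, 0 members and 0% of genes were called by the limma F test, with 17 members and 2412 of 17079 genes at an unadjusted p under 0.05. Without the 4 arrays of replicate 1, 23 of 41 members were called in Cy3. With the slide as a block 40 were called. Arrays numbered 1 and 2 lie on a different pair of slides from those numbered 3 and 4. Replicates 1 and 2, which mark the members' extremes, thus share slides.

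The range between replicate numbers is given by subgroup, with no test between subgroups. In Cy3 the median range was 1.26 over the 31 core genes, 1.21 over the 5 Gbp and Irg GTPases and 0.38 over the 3 antigen-processing genes, against 0.12 over all genes. Iigp1, an IRG GTPase that acts on pathogen vacuoles, had the widest range of the GTPases at 1.84, and Gbp2, a guanylate-binding protein, the narrowest at 0.84. Gbp2's log2 Cy3 levels in resting cells at 2 h were 11.05, 9.97, 10.38 and 10.5. The 3 antigen-processing genes ranged over 0.27 (Psmb8), 0.38 (Psmb9) and 0.42 (Tap1), all below the lowest core value of 0.53 (Ifi35). In Cy5 Tap1 ranged over 0.61, above the core genes Ifi35 and Herc6 (both 0.52), and Psmb8 and Psmb9 over 0.29 and 0.38. Psmb8, an immunoproteasome subunit, was at 14.09, 13.91, 14.02 and 14.14 in resting cells at 2 h and at 14.42, 14.17, 14.24 and 14.34 in activated cells at 16 h. Among the regulators, Irf7 ranged over 1.92 and Irf9, the DNA-binding part of the type I complex, over 0.65. Stat2, its STAT partner, ranged over 0.54, and Irf1, shared by both interferon types, over 0.48. The 18 members with an ISRE core match had a median range of 1.28 and the 15 with a window but no match one of 0.65, and the ranges of both sets (0.54 to 2.39 and 0.27 to 2.28) overlapped.

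**Figure D2:**
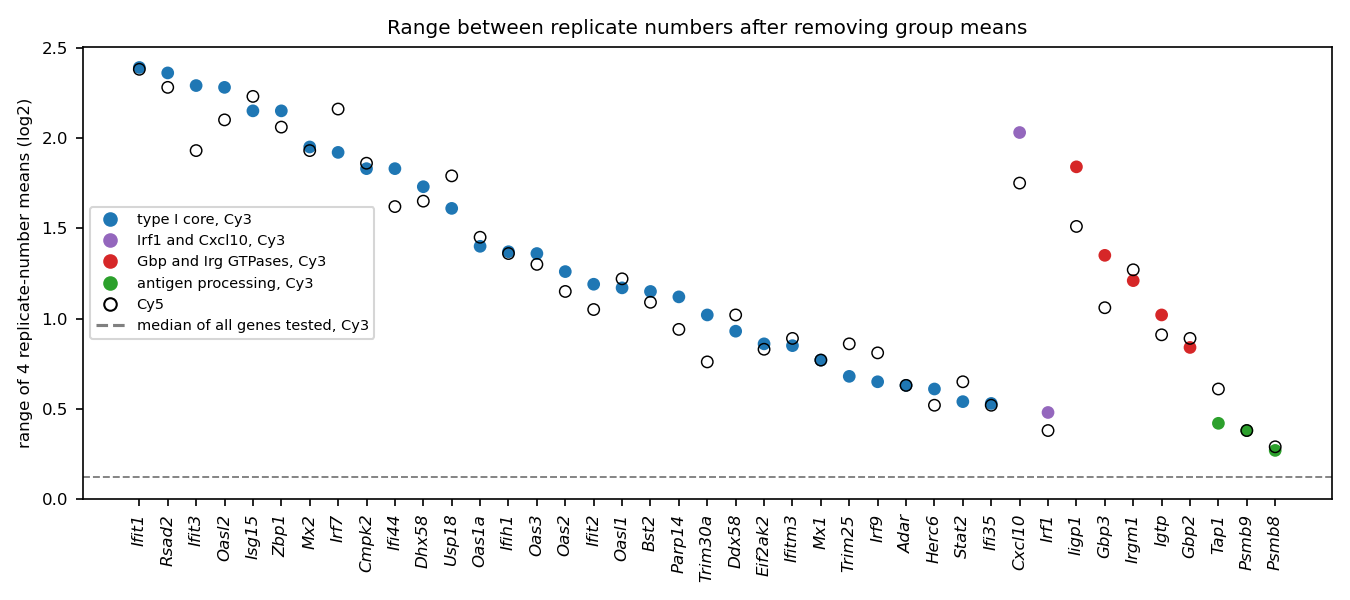
Range of the 4 replicate-number means (log2, group means removed) for each member, as filled points in Cy3 coloured by subgroup and open points in Cy5; the dashed line is the Cy3 median of all genes, 0.12. Antigen-processing genes lie at the right between 0.27 and 0.42 in Cy3, below every type I core gene, while Tap1's Cy5 point at 0.61 lies above those of Ifi35 and Herc6.

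Outside the members, the genes whose Cy3 deviations from the group means were most like the core median over the 16 arrays included Fbxo39 (Pearson r 0.996), Slfn5 (0.992), Ifi207 (0.988), Apol9b (0.986), Rtp4 (0.985), Ifi204 (0.985), Oas1f (0.98), Kdr (0.979) and Batf2 (0.979). The arrays share replicate numbers and slides, so these values are a description. The file's Fbxo39 probe has a transcript that RefSeq's table does not hold, and Fbxo39 and the unmeasured member Xaf1 are neighbours on chromosome 11. Among the members, the lowest r with the core median were those of Psmb9 (0.7), Stat2 (0.74), Tap1 (0.74) and Psmb8 (0.86). Of these only Stat2 is itself part of that median.

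Other genes of the pathway are read beside the 6.52% of all genes that replicate number called in Cy3. Of 16 tested ligand, receptor and JAK-STAT genes, 4 were called. Ifnb1, the gene of interferon beta, deviated by 0.6, -0.23, -0.31 and -0.07 on replicates 1 to 4 (limma F test, adjusted p = 3.23e-07). Ifngr2, a receptor chain for interferon gamma, and Socs3, a feedback inhibitor, were also called. Ifna4 did not rise well above background on any array, and Ifng, the gene of interferon gamma, did not pass (adjusted p = 0.546). Of 13 genes of interferon induction 4 were called: Irf8 (range 1.56), Tlr7 (1.06), Irf5 and Trim21. A further 19 genes of the type I response gave 18 calls, with the widest ranges in Rtp4 (2.46) and Isg20 (1.58). Of 14 further GTPase and class I or II genes, 11 were called, led by Cd74 (1.84) and Tgtp1 (1.53), and Tap2, Psme1 and B2m did not pass.

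Markers of macrophages and dendritic cells moved with replicate number too. All 10 tested were called, with ranges up to 2.17 (Mpeg1), and 0 of 10 mast cell markers were called. Csf1r, the receptor that defines the macrophage lineage, deviated by 0.65, -1.04, -0.11 and 0.5 on replicates 1 to 4. Unlike the core median, it was high on replicate 4 as well as on replicate 1. On replicate 4, Lyz2 (0.53), Mpeg1 (0.52), H2-Ab1 (0.46), Cd14 (0.38), Itgax (0.27), Cd68 (0.21), Mrc1 (0.19) and Adgre1 (0.07) were also above their group means. Fcgr1, which is itself raised by interferon, deviated by 1.35, -0.72, -0.44 and -0.18. Among other cell types, 1 of 4 plasmacytoid, 2 of 4 neutrophil and 2 of 3 basophil markers were called, and 0 of the tested eosinophil (2), lymphocyte (4), erythroid (2) and fibroblast (2) markers. The F test has no direction. On replicate 1 the called basophil markers Mcpt8 (-0.3) and Prss34 (-0.28) and the neutrophil marker S100a9 (-0.2) were low, unlike the members. Mmp8 (neutrophil, 0.68) and Tcf4 (plasmacytoid, 0.18) were high there. The part of these cells in the members' differences was not tested.

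Because same-numbered arrays shared a level over all genes in Cy3, each comparison of IgG-treated cells is also given with replicate number as a block. In IgG-treated cells at 2 h, Tap1, Psmb9 and Irf1 were lower after activation. Tap1, which pumps peptides into the endoplasmic reticulum, had log2 Cy3 levels of 9.54, 8.76, 9.28 and 9.03 in resting and 8.66, 8.16, 8.04 and 8.3 in activated cells. The 2 groups did not overlap, and the difference was -0.86 ± 0.15 (SE, n = 4 and 4, limma adjusted p = 0.000161). Psmb9, another immunoproteasome subunit, fell by 0.62 and Irf1 fell by 0.53. Those 3 were the members called lower and 0 were called higher, where 27.6% of genes were called lower and 15.3% higher. With the block, 4 members were higher and 11 lower, against 16.9% and 29.6% of genes. Cxcl10, a chemokine that draws activated T cells, was higher in activated cells by 0.95 (blocked adjusted p = 0.00044, 0.205 without the block), Gbp3 by 0.85 (4.38e-06, 0.0791 without), Rsad2 by 0.52 and Isg15 by 0.33. Cxcl10 levels were 11.01, 8.59, 9.29 and 9.94 in resting and 12.04, 9.73, 10.19 and 10.64 in activated cells, higher in all 4 pairs of one number although the groups overlapped. Usp18, the protease that removes Isg15 from proteins and restrains the receptor, was different by -0.64 and Parp14 by -0.57.

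At 16 h, activation was called in 0 of 41 members without the block (limma, with 0 at an unadjusted p under 0.05), where 12.3% of genes were called. With it, 17 were higher and 2 lower, against 7.55% and 9.42% of genes. Dhx58, a helicase of the RNA sensor family, was higher by 0.6 (blocked adjusted p = 0.000331, 0.469 without). Mx2, a dynamin-like antiviral GTPase, was higher by 0.58 and Isg15 by 0.54. The antigen-processing genes gave differences of -0.04 to 0, with 0 of 3 called in either fit, and of the 5 Gbp and Irg GTPases 3 were called higher with the block. In the anti-TIM-3-treated cells of the same arrays the members' median difference was -0.05, against 0.22 in IgG-treated cells. Within slides, the members' median differences in IgG-treated cells were -0.33 on slide 2 and 0.28 on slide 4. At 16 h slide 2 holds activated replicates 1 and 2 and resting replicate 1, and slide 4 activated replicate 4 and resting replicates 3 and 4. The part of replicate number in these values was not tested.

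In resting IgG-treated cells, Psmb9 rose from 12.13, 11.58, 11.85 and 12.08 at 2 h to 12.95, 12.81, 12.96 and 12.98 at 16 h. The groups did not overlap, and the rise was 1.01 ± 0.13 (SE, limma adjusted p = 9.08e-06). Trim30a, a restriction factor of the tripartite motif family, rose by 0.88, Stat2 by 0.69 and Psmb8 by 0.25. These 4 were called higher and 0 lower, against 24% of genes higher and 22.9% lower. With the block, 20 were higher and 7 lower, against 26.3% and 24.8%. Irf7 was then higher by 1.03 (blocked adjusted p = 1.03e-05, 0.132 without). On the other side, Cxcl10 differed by -1.4, Rsad2 by -0.8 and Ifit3 by -0.62.

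In activated IgG-treated cells 19 members rose between 2 h and 16 h and 1 fell, against 33.8% and 26.3% of genes. With the block 27 rose and 8 fell, against 35.3% and 27.9%. Psmb9 rose from 11.63, 10.96, 11.11 and 11.47 to 12.92, 12.79, 12.91 and 12.93, a difference of 1.59 ± 0.13 (SE, 3.02-fold, limma adjusted p = 2.06e-08). All 3 antigen-processing genes rose, as did the regulators Irf7 (1.69), Stat2 (0.5) and Irf9 (0.49). Trim30a rose by 1.32 and Eif2ak2, the RNA-activated kinase PKR, by 0.98. Cxcl10 fell from 12.04, 9.73, 10.19 and 10.64 to 9.34, 7.67, 8.38 and 7.97, a 4.96-fold difference (-2.31 ± 0.57 SE, adjusted p = 0.00203). Every level of Cxcl10 at 16 h was below every level at 2 h. With the block Dhx58 rose by 1.53, and Rsad2 and Ifit3 fell by 0.86 and 0.75 (adjusted p = 0.28 and 0.329 without it). With the slide as a block in place of replicate number, 12 rose and 1 fell. The comparisons of time in resting and in activated cells have no arrays in common, and the difference between them was not tested.

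**Figure D3:**
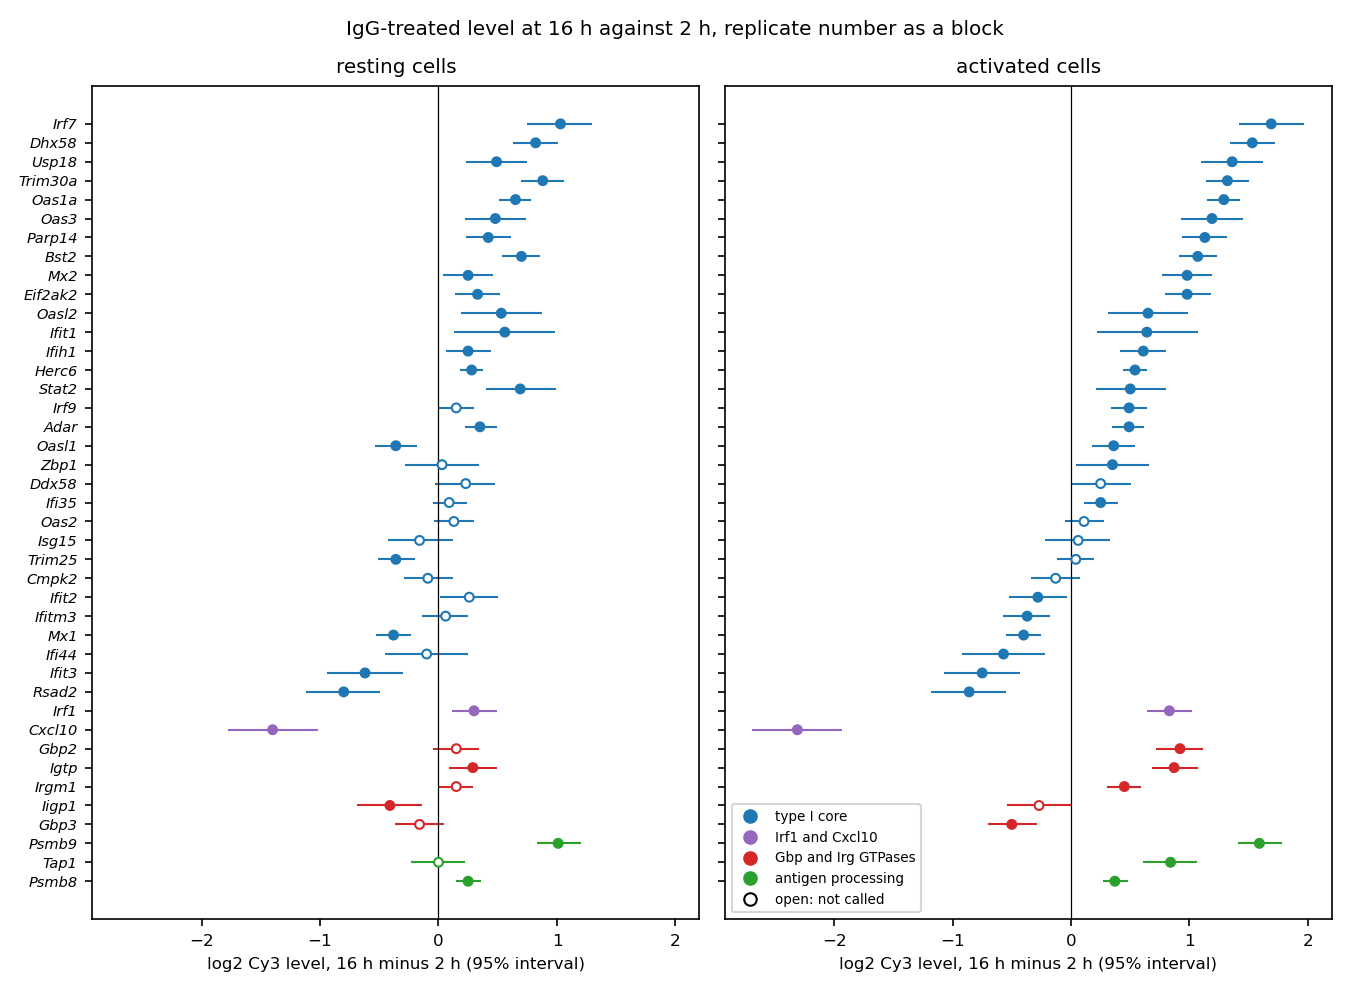
Difference in log2 Cy3 level between 16 h and 2 h in IgG-treated resting (left) and activated (right) cells, with 95% intervals from the fit with replicate number as a block; colours mark subgroups and open points were not called. Cxcl10 (-1.4 and -2.31), Rsad2 (-0.8 and -0.86) and Ifit3 (-0.62 and -0.75) lie left of 0 on both sides, and Psmb9 (1.01 and 1.59) and Irf7 (1.03 and 1.69) lie right of 0.

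The antibody comparison is the log2 ratio of Cy5 to Cy3 on each array, above 0 where the anti-TIM-3 channel was the brighter. In activated cells at 16 h, 22 of the 41 members were called lower with anti-TIM-3 than with IgG and 0 higher (limma, adjusted p under 0.05), where 13.2% of genes were called lower and 16.9% higher. The members' median was -0.23, against 0.01 for all genes, and 35 of 41 were below 0. With arrays centred on the median in place of the loess curve, 18 were lower and 13 higher, against 35.3% and 40.6% of genes, and the members' median was -0.03 against 0.05 for all genes. Of the 22 members called lower after loess, 17 were also called lower after median centring.

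Rsad2's log2 Cy3 levels there, 11.36, 9.05, 9.39 and 9.41, stood beside Cy5 levels of 10.27, 7.98, 8.77 and 8.84. Its 4 log2 ratios were -1.09, -1.07, -0.61 and -0.57, with a mean of -0.84 ± 0.07 (SE, n = 4), a 1.79-fold difference (adjusted p = 2.6e-07). All 4 ratios lay below those of the other 3 groups, which ran from -0.17 to 0.14. Ifit1's ratios were -0.89, -1.11, -0.53 and -0.43 (mean -0.74 ± 0.08 SE, adjusted p = 1.61e-06), and Ifit3's were -1.15, -0.5, -0.69 and -0.49 (mean -0.71 ± 0.1 SE, adjusted p = 5.63e-05). Under median centring these means were -0.73, -0.63 and -0.8. Among the regulators, Irf7's ratios were -0.66, -0.97, -0.56 and -0.65 (mean -0.71, adjusted p = 0.000283). Irf9 (0.02) and Stat2 (-0.18) did not pass.

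**Figure D4:**
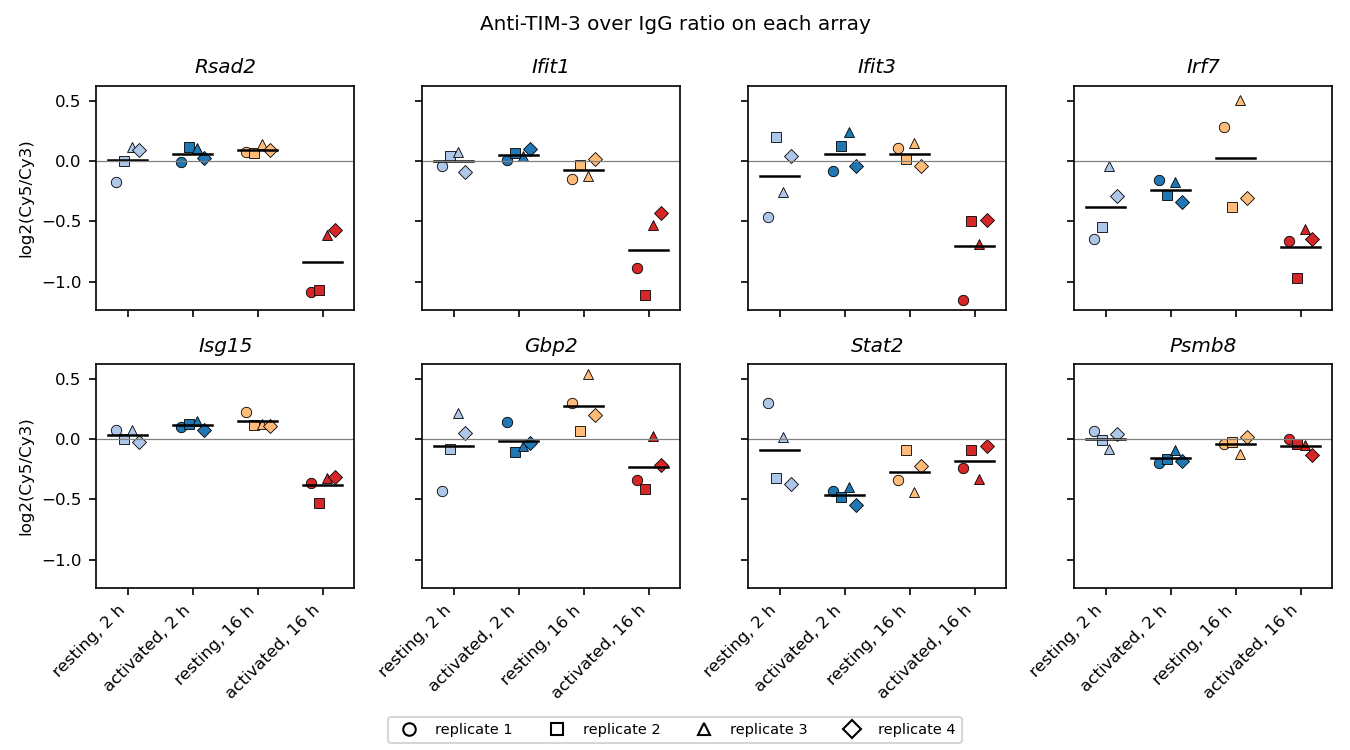
Log2 ratio of Cy5 (anti-TIM-3) to Cy3 (IgG) on each of the 16 arrays for 8 members, with a marker shape for each replicate number and a bar at each group mean. In activated cells at 16 h all 4 arrays of Rsad2, Ifit1, Ifit3, Irf7 and Isg15 lie below 0, and those of Psmb8 lie between -0.13 and 0.

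Of the 25 effectors, 14 were called lower in activated cells at 16 h, with a median of -0.26 over all 25. Further called effectors were Oasl2 (-0.65), Usp18 (-0.49), Oas2 (-0.48), Ifi44 (-0.46), Isg15 (-0.38) and Ifi35 (-0.37), then Mx2, Ifit2, Cmpk2, Zbp1 and Oas3 between -0.32 and -0.16. The remaining effectors ran from -0.26 (Trim30a) to 0.07 (Eif2ak2). Of the sensors, Dhx58 was lower (-0.2), and Ifih1 and Ddx58, which detect double-stranded and 5′-triphosphate RNA, gave 0.03 and 0.02. Under median centring Dhx58 gave 0 and Ifih1 was called higher (0.2). Cxcl10 was lower on 3 of 4 arrays, with ratios of -0.88, -0.69, -0.53 and 0.1 (mean -0.5). Of the 5 GTPases, Iigp1 (-0.32), Irgm1 (-0.26), Igtp (-0.26) and Gbp3 (-0.23) were called lower and Gbp2 gave -0.23 (adjusted p = 0.0617). Under median centring only Iigp1 (-0.47) was still called, and Gbp3, Irgm1 and Igtp gave -0.03, 0.03 and 0.13. Irf1 (-0.21) was called lower after loess and higher after median centring (0.14). The 3 antigen-processing genes gave -0.06 to -0.15 with 0 called after loess, and Psmb8 and Psmb9 were higher by 0.43 and 0.26 under median centring.

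Macrophage and dendritic cell markers moved in the same comparison. Of 10 tested, 8 were lower and 1 higher in activated cells at 16 h, against 13.2% and 16.9% of genes, with a median of -0.54. Cd14 (-0.91), Fcgr1 (-0.78), Mpeg1 (-0.78) and Lyz2 (-0.70) were lower and Itgax was higher (0.49). Of 10 mast cell markers 7 were higher and 1 lower, with a median of 0.14. This was not particular to the group. In resting cells at 16 h 6 were higher and 1 lower (median 0.3). At 2 h, 4 were higher in resting and 3 in activated cells, with 0 lower. The part of either in the members' ratios was not tested.

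In resting cells at 2 h, 5 members were lower with anti-TIM-3 and 0 higher, against 6.92% and 7.07% of genes. They were Irf7 (-0.38), Tap1 (-0.37), Bst2 (-0.29), which is the virion-retaining protein tetherin, Igtp (-0.24) and Ifi35 (-0.13). Bst2's ratios of -0.41, -0.08, -0.58 and -0.11 were all below 0, as were Irf7's of -0.65, -0.55, -0.04 and -0.29. Median centring gave 12 higher and 5 lower members, against 32.9% and 25.5% of genes. Of the 5 called after loess, only Irf7 (-0.36) and Tap1 (-0.31) were lower under both, and Bst2, Igtp and Ifi35 gave -0.06, 0.04 and 0.05. Leaving out 1 of the 4 arrays left 1 member called without replicate 1, 2 without replicate 2, 4 without replicate 3 and 3 without replicate 4. Without replicate 3, Ifi35 (limma adjusted p = 0.103) and Igtp (0.0884) lost the call, so the 4 then called included another member.

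In activated cells at 2 h, 4 members were higher and 5 lower, against 17.1% and 16.3% of genes. Stat2 had ratios of -0.43, -0.48, -0.4 and -0.55, a mean of -0.47 ± 0.08 (SE, adjusted p = 0.000411) with little spread between arrays. Tap1 (-0.45), Ifi35 (-0.21), Psmb8 (-0.16) and Dhx58 (-0.13) were also lower. The 4 higher members were Cmpk2 (0.16), a mitochondrial nucleotide kinase, Oas1a (0.14), Oasl1 (0.14) and Isg15 (0.11). Median centring gave 16 higher and 2 lower members, against 34.7% and 31.4% of genes. The lower ones were Stat2 (-0.32) and Tap1 (-0.46). Psmb8 was then called higher (0.27), and Ifi35 and Dhx58 gave -0.01 and -0.06. Cmpk2 (0.14) was then not called. The count of higher members was 0 with Agilent's processed signals, 1 with a background offset of 10, and 2 without the filter on dim probes or with the slide as a block. It was 1 without replicate 2 and 2 without replicate 4. Without replicate 3 it was also 1, but all 4 members named as higher then lost the call, so this was another member.

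In resting cells at 16 h, 8 members were higher and 2 lower, against 11.7% and 9.95% of genes. Trim25, the ubiquitin ligase that activates the sensor encoded by Ddx58, had ratios of 0.39, 0.2, 0.74 and 0.21 (mean 0.38, adjusted p = 0.00529). Gbp2 (0.28), Irf9 (0.27), Ddx58 (0.25), Oas1a (0.24), Eif2ak2 (0.18), Oasl1 (0.18) and Isg15 (0.15) were also higher, and Stat2 (-0.27) and Irf1 (-0.22) were lower. Irf9's other kept probe gave -0.1. With the mean of all kept probes Irf9 gave 0.08 (limma adjusted p = 0.208) and Ddx58 gave 0.13 (0.0872), neither of them called. Irf7's ratios split by array, at 0.28, -0.38, 0.51 and -0.31. Median centring gave 21 higher and 1 lower members, against 37.9% and 31.5% of genes. The lower one was Oas2 (-0.15), and Stat2 and Irf1 gave -0.07 and 0.07, neither of them called. Without replicate 1, 5 members were called, and without replicate 3, 2 were. The ratios of resting arrays over all genes correlated most between replicates 1 and 3 at 16 h (r 0.78). Replicate 3 at 2 h correlated with those at 0.5 and 0.63. Without these 3 arrays all 8 higher and 2 lower members lost the call in resting cells at 16 h. The 1 member then called was a different one.

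**Figure D5:**
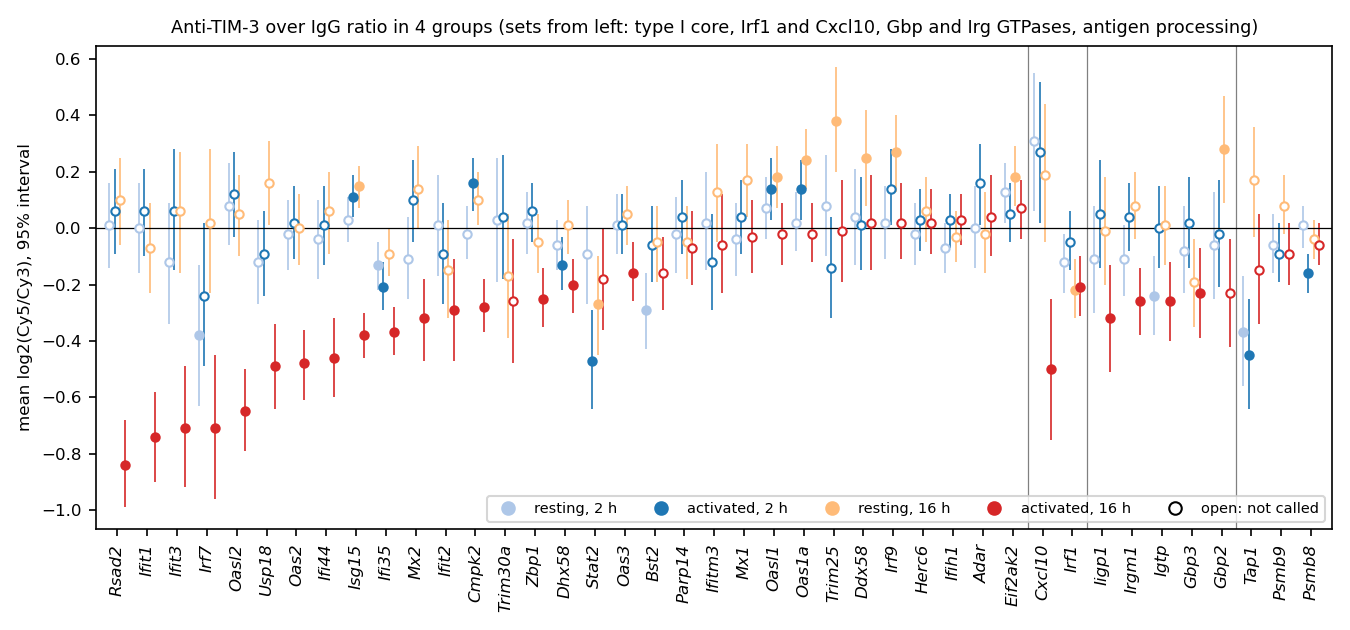
Mean log2 ratio of Cy5 (anti-TIM-3) to Cy3 (IgG) with 95% intervals for all 41 members in the 4 groups after loess, ordered within subgroup by the value in activated cells at 16 h; filled points were called and open points were not. The red points of activated cells at 16 h reach -0.84 in the type I core and stay between -0.15 and -0.06 in antigen processing, while the means of the other 3 groups stay between -0.47 and 0.38.

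Differences between groups are free of a dye bias shared by all arrays. At 16 h, the ratio was lower in activated than in resting cells for 16 members and higher for 0, against 3.87% and 4.71% of genes. Median centring also gave 16 and 0, against 4.41% and 5.85% of genes. The members' median difference was -0.24 under both, against 0 (loess) and -0.02 (median centring) for all genes, and 14 members were called by both. Rsad2 differed by -0.93 ± 0.1 (SE, limma adjusted p = 1.45e-05), from a mean ratio of 0.1 in resting to -0.84 in activated cells. That is its brightest probe. Its other kept probes had smaller differences, with mean ratios of -0.27 and -0.03 in resting and -0.68 and -0.57 in activated cells. Ifit3 differed by -0.77 (adjusted p = 0.00277), Irf7 by -0.73 (0.0126), Oasl2 by -0.7, Cxcl10 by -0.69, Ifit1 by -0.67 and Usp18 by -0.66. Ifit3's other kept probe had mean ratios of 0.05 in resting and -0.26 in activated cells. The other called members were Isg15, Ifi44, Gbp2, Oas2, Mx2, Cmpk2, Irgm1, Ifi35 and Oas1a, between -0.53 and -0.26. By subgroup, 13 of 31 core genes, 2 of 5 GTPases and 0 of 3 antigen-processing genes were called. Of the 10 macrophage and dendritic cell markers, 6 were lower and 1 higher in this difference, with a median of -0.48. Of 10 mast cell markers, 2 were lower and 1 higher, with a median of -0.22. The part of either in the members' difference was not tested. Within slides, the members' median difference was -0.34 on slide 2 and -0.28 on slide 4. Without the 3 resting arrays named above, 9 members were called, Irf7 gave -0.36 (adjusted p = 0.0926) and Ifit3 gave -0.69 (adjusted p = 0.0511). Without resting replicate 1 at 16 h Irf7 gave -0.64 (adjusted p = 0.0502).

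In activated cells, the ratio was lower at 16 h than at 2 h for 13 members and higher for 0, against 8.05% and 9.14% of genes. Median centring gave 13 lower and 2 higher, against 16.1% and 12.8% of genes. Rsad2 differed by -0.9 ± 0.1 (SE, limma adjusted p = 8.45e-06), from a mean of 0.06 to -0.84. Its other kept probes both had a mean of 0.17 at 2 h, and -0.68 and -0.57 at 16 h. Ifit1 (-0.8, adjusted p = 4.72e-05), Ifit3 (-0.77, adjusted p = 0.00108), Oasl2 (-0.77) and Cxcl10 (-0.77) followed. Ifit3's other kept probe had means of 0.02 at 2 h and -0.26 at 16 h. The other 8 called members were Oas2, Isg15, Ifi44, Cmpk2, Mx2, Usp18, Zbp1 and Irgm1, between -0.51 and -0.3. Of the macrophage and dendritic cell markers 8 were lower and 1 higher here, with a median of -0.51. Of 10 mast cell markers 1 was lower and 2 higher, with a median of 0.12. The part of either was not tested. Only slide 3 holds both groups, and the members' median there was -0.15. This comparison and the preceding one share the activated arrays at 16 h, so their agreement is not a second observation.

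Neither of the remaining differences was called in any member. Between activated and resting cells at 2 h, 0 members passed in limma and 6 had an unadjusted p under 0.05, where 5.58% of genes were called. With resting replicate 2 left out 2 members were called, and 1 each without resting replicate 3, resting replicate 4 or activated replicate 3. Between 16 h and 2 h in resting cells, 0 members passed and 13 had an unadjusted p under 0.05, where 0.287% of genes were called. Without resting replicate 3 at 2 h, 7 members were called higher, and 1 was called without resting replicate 2 or without replicate 4 at 16 h.

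Other genes of the pathway had ratios of either direction in activated cells at 16 h. The counts are after loess alone, where 13.2% of all genes were called lower and 16.9% higher. Of 16 ligand, receptor and JAK-STAT genes, 2 were higher (Ifnar2 0.15, Ptpn2 0.1) and 6 lower, led by Ifngr1 (-0.36) and Tyk2 (-0.35). Ifnb1 gave -0.17 (limma adjusted p = 0.0835). Of 13 genes of interferon induction, 5 were higher, led by Irf8 (0.37) and Irf2 (0.34), and 2 lower, Tlr7 (-0.34) and Irf3 (-0.19). Of 19 further type I genes, 8 were lower, led by Rtp4 (-0.65) and Plac8 (-0.4), and 2 higher, Ly6e (0.37) and Pml (0.2). Of 14 further GTPase and antigen-presentation genes, 5 were lower, led by Tgtp1 (-0.41) and Gbp5 (-0.36), and 2 higher, B2m (0.4) and Psme1 (0.11). In the difference between activated and resting cells at 16 h these 4 lists gave 1, 2, 6 and 2 genes lower and 0, 2, 0 and 1 higher. Of all genes, 3.87% were called lower and 4.71% higher there.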

How the data were processed

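RNA of IgE-receptor-activated or resting mouse mast cells was measured on 16 2-colour Agilent arrays in 4 groups of 4. The deposited files are scanner output with linear-scale intensities of spot and local background, read by Agilent Feature Extraction 9.1.3.1 per the file headers (version 9 per the submitters' processing notes). The authors' deposited matrix lists log10 ratios of Cy5 over Cy3 equal to those of the scanner files (largest difference 0); it was used only to check scale and direction. From the intensities, limma 3.58.1 in R 4.3.3 (data.table, version 1.17.8) corrected background by normexp with an offset of 50 and fitted a loess curve to each array in which control and outlier spots had weight 0. The offset makes changes of dim genes smaller than they are (an array's median spot had a Cy3 intensity of 61.2 to 78.8, and its median background was 29.5 to 34.5). Cy3 and Cy5 levels were normalized between arrays with Aquantile.

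Of 41174 probes, 25394 were kept, those whose Cy3 or Cy5 signal was well above background on 3 or more of the 4 arrays in some group, and the brightest kept probe stood for a gene. Probes were named through RefSeq, so the file's Gbp4, Tyki, Herc5, D11Lgp2e, Isgf3g, Irgm and Trim30 appear as Gbp3, Cmpk2, Herc6, Dhx58, Irf9, Irgm1 and Trim30a. A model with a mean for each group over all 16 arrays gave every ratio, difference and Cy3 comparison (lmFit, eBayes, two-sided, Benjamini-Hochberg over all genes, called at adjusted p under 0.05). Each SE given after ± is from this model, which pools the spread over all 16 arrays, and not from the arrays of a group alone. A second fit with group and replicate number gave the F test. Scripts were tested on simulated data.

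Same-numbered arrays were paired for Cy3, since all 24 same-number pairs correlated at 0.12 to 0.68 over genes after group means were removed (0.08 to 0.67 without the listed genes), and 15 of 16 arrays were most like an array of their own number. The pairing comes from the labels' numbers and this check. For the ratio the pairs ran from -0.45 to 0.63 and were not taken as paired. The members and gene lists were chosen with earlier results of these data known, so their counts are read beside those of all genes. The rule for values by array chose the 3 largest called rises and falls of a comparison that go the same way on all 4 arrays or pairs. It also chose the 6 widest replicate-number ranges and Irf7, Stat2, Irf1, Gbp2, Psmb8 and Tap1. Members called under the block were added to this rule after the data were seen. Only some of the members chosen are printed by array, and the others, such as Irf1, Oasl2 and Zbp1, are named by value. Members outside the rule are named by count and value. Alternatives changed the offset, background signal, normalization, filter, probe rule, slide block, replicate block, arrays fitted and channel, and left out each array in turn. A gene that the rule would name is not reported here.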

Additional observations from a re-analysis of the deposited data

Results flagged for a closer look

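In 18 of 232 sets of 4 arrays examined for 29 members, 1 array lay far from the other 3. The rule would give about 1 in 20 by chance if the sets were independent. They are not, because members vary together on the same arrays and their dependence on replicate number was known beforehand. The count is therefore a description, and no share over all genes was computed. In all but 2 of these sets it was replicate 1. In the log2 ratio they were Mx2 in resting cells at 2 h (replicate 1 at -0.34) and Ifit2 in activated cells at 16 h (replicate 1 at -0.76). In the log2 Cy3 level of resting cells at 16 h, replicate 1 lay apart for Cmpk2 (8.89), Stat2 (11.72), Irf1 (13.16), Rsad2 (11.01), Ifit1 (11.12), Ifit3 (9.87), Cxcl10 (9.56) and Mx2 (9.3). In activated cells at 16 h, replicate 1 lay apart for Stat2 (11.85), Gbp2 (11.51), Rsad2 (11.36), Eif2ak2 (11.6), Mx2 (10.06) and Ifitm3 (13.73). Psmb9 was lowest on replicate 2 in both 16 h groups (12.81 in resting and 12.79 in activated cells).

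The anti-TIM-3 ratio differed between groups by limma's test of the difference. At 16 h it was lower in activated than in resting cells for Rsad2 (-0.93), Ifit3 (-0.77), Irf7 (-0.73), Oasl2 (-0.7), Cxcl10 (-0.69), Ifit1 (-0.67), Usp18 (-0.66), Isg15 (-0.53), Ifi44 (-0.52), Gbp2 (-0.51), Oas2 (-0.48), Mx2 (-0.47), Cmpk2 (-0.38), Irgm1 (-0.34), Ifi35 (-0.28) and Oas1a (-0.26). In activated cells it was lower at 16 h than at 2 h for Rsad2 (-0.9), Ifit1 (-0.8), Ifit3 (-0.77), Oasl2 (-0.77), Cxcl10 (-0.77), Oas2 (-0.51), Isg15 (-0.5), Ifi44 (-0.47), Cmpk2 (-0.43), Mx2 (-0.42), Usp18 (-0.4), Zbp1 (-0.3) and Irgm1 (-0.3).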

How the results depend on the processing

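Over 248 recomputed counts of called members, 214 were within 1.5 times the count reported. Median centring called 17 members in the ratio of resting cells at 2 h (12 higher, 5 lower, against 32.9% and 25.5% of genes). It called 18 in activated cells at 2 h (16 higher, 2 lower, against 34.7% and 31.4%). In resting cells at 16 h it called 22 (21 higher, 1 lower, against 37.9% and 31.5%). It called 1 in each of the differences between activated and resting cells at 2 h and between 16 h and 2 h in resting cells. Of all genes, 4.03% and 1.23% were called higher in these differences, and 2.12% and 1.73% lower. Agilent's processed signals called 3 members in resting cells at 2 h, and the fit to the arrays compared called 0 there and 5 in resting cells at 16 h. Between activated and resting cells at 2 h, the mean of probes called 1, the slide block 2 and the fit without 3 resting arrays 1. In resting cells at 16 h the last called 1, which was not among the members called with all arrays. It called 9 in the difference of activated and resting cells at 16 h. The replicate block called 15 members (4 higher, 11 lower) for activation at 2 h in Cy3, 19 (17 and 2) at 16 h, 27 (20 and 7) for time in resting cells and 35 (27 and 8) in activated cells. In Cy5, activation at 2 h called 5, and the slide block called 13 for time in activated cells. For the ratio, the replicate block called 24 members in activated cells at 16 h, 20 between activated and resting cells at 16 h, 17 for time in activated cells and 1 for time in resting cells. Only 7 of 16 arrays had a ratio most like that of an array with their own number. Without the replicate 1 arrays, replicate number was called in 23 members in Cy3.

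Leaving out 1 array gave 1 to 4 members in the ratio of resting cells at 2 h, 6 to 7 in activated cells at 2 h, 2 to 9 in resting cells at 16 h and 18 to 22 in activated cells at 16 h. For the ratio differences it gave 0 to 2 (activation, 2 h), 13 to 18 (activation, 16 h), 0 to 7 (time, resting) and 12 to 15 (time, activated). In Cy3 it gave 3 to 4 (activation, 2 h), 0 to 0 (activation, 16 h), 4 to 6 (time, resting) and 15 to 22 (time, activated). For replicate number it gave 37 to 40 in Cy3 and 0 to 6 in the ratio (6 without activated replicate 3 at 2 h). Of 2498 recomputed values of members that were called or chosen by the rule for values by array, 2273 kept direction and call. A further 188 lost and 29 gained the call, and 8 reversed, all in group ratios under median centring. These were Ifi35 (0.05) and Igtp (0.04) in resting cells at 2 h, Psmb8 (0.27) in activated cells at 2 h, Irf1 (0.07) in resting cells at 16 h, and Dhx58 (0), Irgm1 (0.03), Igtp (0.13) and Irf1 (0.14) in activated cells at 16 h. Rsad2 in activated cells at 16 h ran from -0.97 to -0.7 and was called under all 14 alternatives. Oas2 there ran from -1.3 to -0.38, also called under all 14. Signal over background limits Mx1, the excluded Cxcl9 and the Cy5 level of Oas2 in activated cells at 16 h.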
